A study of Mus musculus with 10 samples.

Results

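The genes described here encode subunits of respiratory complex I, the NADH dehydrogenase of the inner mitochondrial membrane. A list of 35 nuclear-encoded subunit genes was taken, out of 21883 protein-coding genes of the mouse, and all 35 were found in the gene table. For each gene, the peaks that came within 3 kb of the gene's start or far end (gene-end peaks) were collected from the peak list of each library. By position in the complex, 15 of the genes encode matrix arm subunits, 19 encode membrane arm subunits, and Ndufab1 belongs to both arms.

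The study asked whether skatole, an indole that intestinal microbes form from tryptophan, alters where the NFκB subunit p65 sits in the genome of macrophages, oxidative phosphorylation genes included. The cells were wild-type RAW264.7, a macrophage-like line from a male mouse tumour induced by Abelson murine leukemia virus, so all values come from 1 cell line and not from primary macrophages, and peak lists allow no marker check of the cells. Cells received the solvent DMSO (DMSO group), DMSO with lipopolysaccharide (LPS group, the endotoxin of Gram-negative bacteria) or LPS with skatole (LPS+Skatole group) for 12 h, and 200000 cells went into each CUT&Tag library, in which a transposase tethered by an antibody cuts and tags DNA beside the target protein. Peak lists of 9 of the 10 samples were analysed, 3 in each of these groups. The Blank sample without primary antibody was not analysed here, and whether it entered the authors' peak calling is not stated in the sources used here. The labels name a p65 antibody and the methods an antibody to phosphorylated p65, and the form captured could not be settled from these sources. Nothing says that the 3 libraries of a group came from separate cultures, so the tests measure the spread between libraries, which may be technical.

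Complex I takes electrons from NADH, passes them along a chain of iron-sulphur clusters to ubiquinone and pumps protons out of the matrix as it does so. The matrix arm holds the NADH site and the clusters, the membrane arm holds the proton pumps, and many accessory subunits clamp the arms together and are needed for assembly. Macrophages activated by LPS are known to rely less on oxidative phosphorylation and to draw part of their mitochondrial reactive oxygen species from complex I. The subunits encoded by mitochondrial DNA are not among the 35 genes, and the 9 lists held 0 peaks on the mitochondrial genome.

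The 250 bases before the annotated start are printed below for 6 genes because the results turn on them. Ndufa3, Ndufb2 and Ndufv1 are the complex I genes the study names. Ndufv3 held the strongest peaks of the list on average, Ndufs7 had the lowest folds at its own start, and Ndufa6 no peak there. Sequences are from RefSeq, build GRCm38.p6, 5′ to 3′ on the strand of the gene, and capitals mark matches to the motifs named in the next paragraph. They lie at chr7:3617123-3617372 (plus strand) for Ndufa3, chr6:39592315-39592564 (plus) for Ndufb2, chr19:4012756-4013005 (minus) for Ndufv1, chr17:31519865-31520114 (plus) for Ndufv3, chr10:80249199-80249448 (plus) for Ndufs7 and chr15:82354292-82354541 (minus) for Ndufa6.
Ndufa3: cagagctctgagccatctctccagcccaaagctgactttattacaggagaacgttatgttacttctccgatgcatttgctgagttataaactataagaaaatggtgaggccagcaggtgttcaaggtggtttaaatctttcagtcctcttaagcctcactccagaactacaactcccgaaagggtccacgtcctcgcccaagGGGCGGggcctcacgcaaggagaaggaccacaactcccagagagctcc
Ndufb2: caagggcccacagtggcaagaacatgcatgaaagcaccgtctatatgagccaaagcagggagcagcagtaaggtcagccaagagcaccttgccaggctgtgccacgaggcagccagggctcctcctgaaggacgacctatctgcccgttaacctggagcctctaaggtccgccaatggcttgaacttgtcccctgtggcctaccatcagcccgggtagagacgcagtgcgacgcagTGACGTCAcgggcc
Ndufv1: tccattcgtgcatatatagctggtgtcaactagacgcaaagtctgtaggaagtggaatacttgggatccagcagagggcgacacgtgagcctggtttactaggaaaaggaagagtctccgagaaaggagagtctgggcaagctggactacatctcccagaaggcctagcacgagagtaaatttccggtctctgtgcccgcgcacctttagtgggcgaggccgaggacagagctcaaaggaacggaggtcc
Ndufv3: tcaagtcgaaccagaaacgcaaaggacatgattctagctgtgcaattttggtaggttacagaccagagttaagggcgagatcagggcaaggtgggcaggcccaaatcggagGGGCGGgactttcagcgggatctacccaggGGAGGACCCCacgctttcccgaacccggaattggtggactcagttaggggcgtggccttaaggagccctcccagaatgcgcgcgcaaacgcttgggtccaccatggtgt
Ndufs7: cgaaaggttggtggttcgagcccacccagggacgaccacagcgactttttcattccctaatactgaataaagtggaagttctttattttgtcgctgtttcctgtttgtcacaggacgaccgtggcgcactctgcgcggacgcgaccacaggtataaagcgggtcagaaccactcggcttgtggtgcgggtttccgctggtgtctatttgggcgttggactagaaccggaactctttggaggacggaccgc
Ndufa6: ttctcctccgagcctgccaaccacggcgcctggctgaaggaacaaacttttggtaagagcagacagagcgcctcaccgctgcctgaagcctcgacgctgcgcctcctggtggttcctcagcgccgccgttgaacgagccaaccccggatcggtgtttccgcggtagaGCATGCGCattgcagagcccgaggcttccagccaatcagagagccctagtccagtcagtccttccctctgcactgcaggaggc

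Motifs were searched on both strands in the 250 bases before and 50 bases after each start, for the 32 genes with a promoter entry (all but Ndufa2, Ndufb9 and Ndufs1) and for 17491 protein-coding genes in all. The κB consensus, the site NFκB dimers recognise, had a match in 3 of the 32 genes (9.38%) against 10.5% of all genes, and these were Ndufv3, Ndufa13 and Ndufb6. In the Ndufv3 promoter printed above, it lies 109 bases before the start on the opposite strand. The SP/KLF motif GGGCGG matched in 15 genes (46.9% against 49.2% of all) and the GABPA/ETS motif CCGGAAG in 4 (12.5% against 12.9%). The NRF1 motif GCATGCGC matched in 3 genes (9.38% against 3.93%), among them Ndufa6, and the CRE motif TGACGTCA in 3 (9.38% against 2.54%), among them Ndufb2 (14 bases before the start). The CRE letters read the same on both strands, and in the printed promoters no matches of different motifs overlapped. A match describes the letters only. Median GC content was 59.0% in the 32 promoters and 56.3% in all, and the ratio of observed to expected CpG was 0.784 against 0.564.

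The YY1 motif AAGATGGC had a match in 7 of the 32 genes (21.9%), against 3.57% of all genes. All 7 matches lay on the strand of the gene, with the first base 22 to 38 bases after the start. The windows below, of at most 28 bases with the match in capitals, are shown because this placement is shared across both arms. They lie at chr13:114388045-114388069 (Ndufs4), chr13:73328433-73328459 (Ndufs6), chr10:80249463-80249490 (Ndufs7), chr6:126849098-126849125 (Ndufa9), chr7:3617385-3617412 (Ndufa3), chr19:44555393-44555414 (Ndufb8) and chr3:51408916-51408943 (Ndufc1). The letters include ATG, and the sequences used here do not mark where coding begins.
Ndufs4: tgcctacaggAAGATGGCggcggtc
Ndufs6: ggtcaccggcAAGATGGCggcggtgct
Ndufs7: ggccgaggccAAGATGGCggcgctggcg
Ndufa9: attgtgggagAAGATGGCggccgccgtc
Ndufa3: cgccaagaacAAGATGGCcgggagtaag
Ndufb8: ggagaaggtgAAGATGGCtgcc
Ndufc1: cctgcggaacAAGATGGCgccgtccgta

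The lists held 37551 to 43450 peaks in DMSO, 55637 to 63498 in LPS and 78136 to 80153 in LPS+Skatole libraries, and total reads were not known here. The lowest background in each list, taken as a measure of relative depth in fragments per position, was 1.09 to 1.4 in DMSO, 2.23 to 2.34 in LPS and 2.26 to 2.39 in LPS+Skatole libraries. At that background the weakest listed peak had 8 or 9 fragments at its summit in DMSO and 11 in the other libraries. By this measure depth was lower in DMSO than in the other groups and overlapped between LPS and LPS+Skatole, while list length separated all 3 groups. Their part in the results was not tested beyond the alternatives given. Peak strength is therefore given on 2 scales, the authors' fold enrichment and the percentile of the peak within its own list by −log10 p, where 100 is the strongest peak and a gene without a peak is put at 0.

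Nearly every complex I gene had a peak of the p65 libraries called at a gene end, in unstimulated cells as in stimulated ones. The Blank sample was not analysed, so whether these peaks depend on the antibody was not tested. Under DMSO, 32, 33 and 34 of the 35 genes had a gene-end peak. Under LPS the numbers were 31, 33 and 32, and with skatole added they were 34, 35 and 32. The share was 94.3% ± 2.85 (SD, n = 3) in DMSO, 91.4% ± 2.85 with LPS and 96.2% ± 4.38 with LPS and skatole, and the groups overlapped. Over all protein-coding genes the share was 50.1% ± 1.31, 55.3% ± 0.945 and 59.2% ± 0.153, in the order of list length. A peak in all 9 libraries was found at 29 of 35 complex I genes (82.9%), at 26 of 34 genes of complexes III to V (76.5%), at 13 of 16 complex I assembly factors (81.2%) and at 40.5% of all protein-coding genes. No complex I gene lacked a peak in every library, against 23.2% of all genes. With lists cut to the length of the shortest, the share in LPS minus that in DMSO was -7.62 percentage points in place of -2.86.

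**Figure D1:**
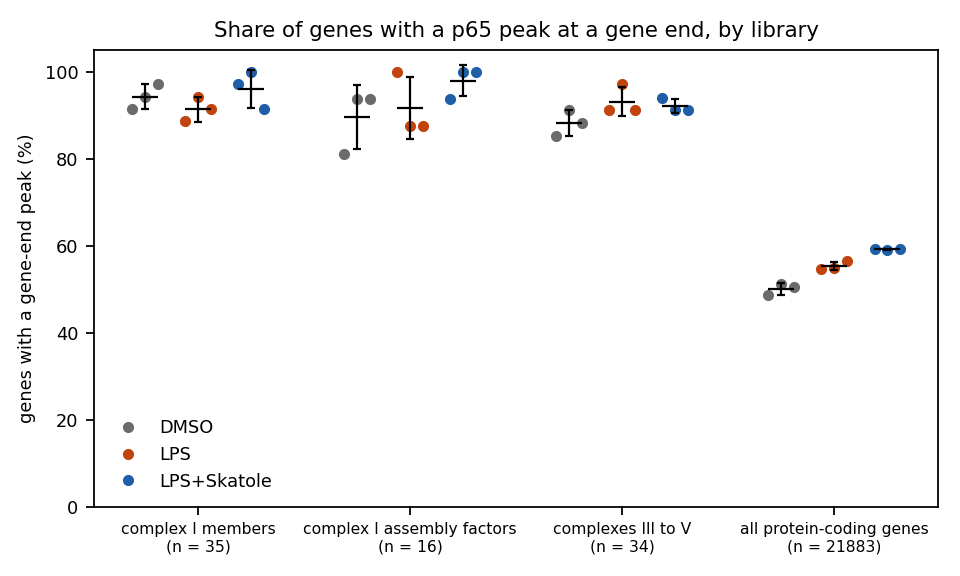
Share of genes with a gene-end p65 peak in % (vertical axis) for 35 complex I genes, 16 complex I assembly factors, 34 subunits of complexes III to V and 21883 protein-coding genes. Points are libraries, dashes and bars the mean and SD of 3 libraries. Complex I genes sit between 88.6% and 100% in all 9 libraries, all genes between 48.6% and 59.3%.

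Among the genes that had a peak, complex I genes had higher medians in the lists than protein-coding genes in general. The median percentile of their best peak was 87.3 ± 1.35 (SD, n = 3) in DMSO, 88.9 ± 1.92 with LPS and 90.0 ± 2.15 with LPS and skatole. Over all protein-coding genes with a peak it was 82.7 ± 0.709, 84.3 ± 0.643 and 84.9 ± 0.379. The complex I medians overlapped between neighbouring groups. They also depended on list length: with all lists cut to 37551 peaks, LPS minus DMSO changed from 1.60 to -3.02 percentile points, and LPS+Skatole minus LPS from 1.15 to -1.72. Matrix arm genes had medians of 84.6 ± 8.44, 87.0 ± 0.757 and 90.9 ± 3.05, and membrane arm genes 87.2 ± 1.30, 88.6 ± 2.48 and 88.6 ± 1.17, so the arms overlapped in each group. The genes of complexes III to V had medians of 89.9 ± 0.551, 89.6 ± 1.71 and 89.4 ± 3.05, and the complex I assembly factors 82.6 ± 3.8, 79.8 ± 3.31 and 84.9 ± 2.66. The sets were not tested against each other.

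**Figure D2:**
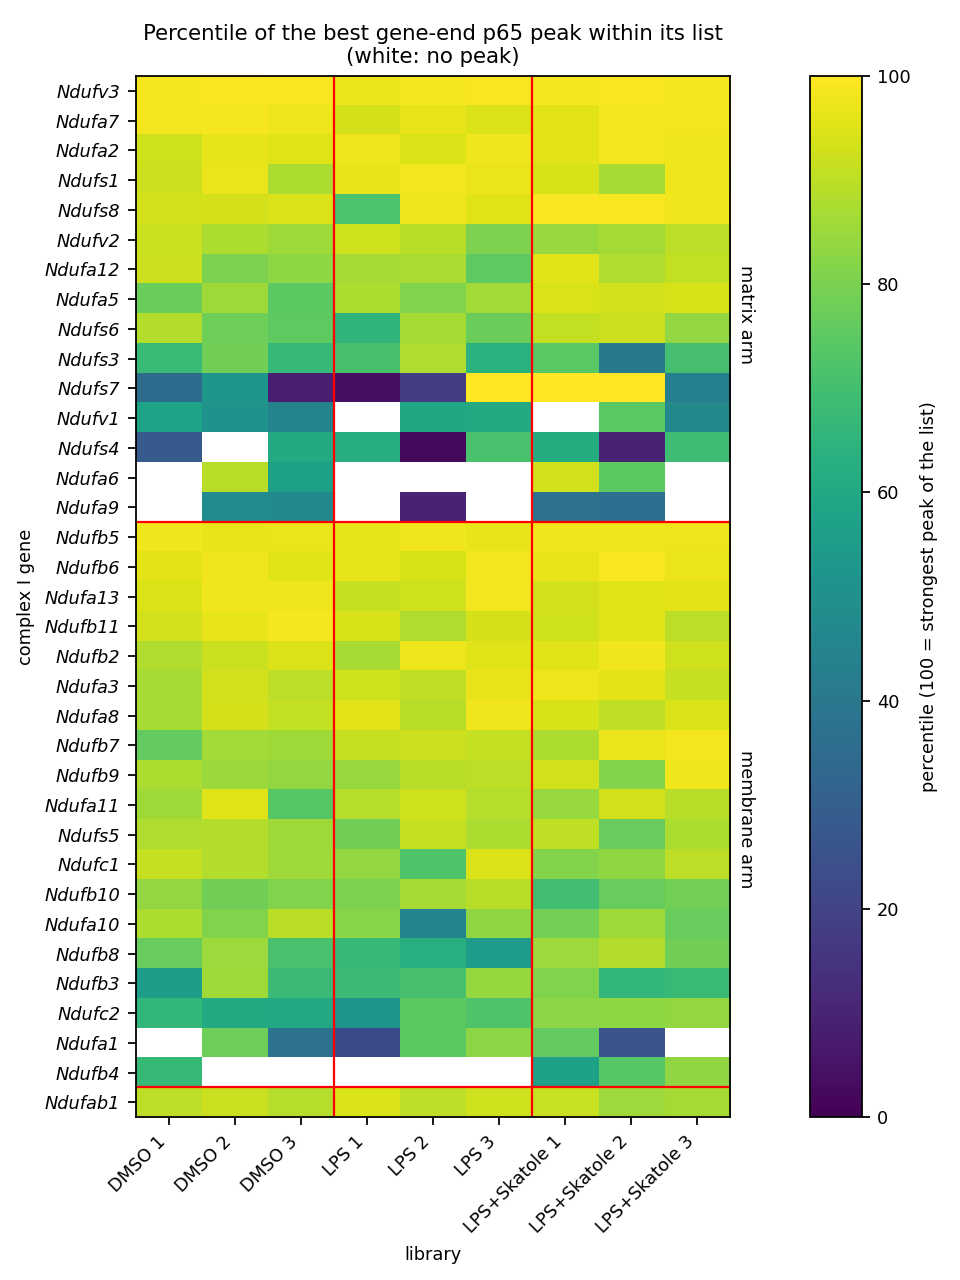
Percentile of the best gene-end peak (colour, 0 to 100) of each of 35 complex I genes (vertical axis, by arm and then by mean) in the 9 libraries (horizontal axis). White marks no peak. Most genes are near the top of the lists in every library, and 6 genes have white cells.

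At most of these genes a peak sat at the transcription start. A peak within 500 bp of an annotated start was present in all 9 libraries at 24 of the 32 genes with a promoter entry (75%), against 33.6% of all genes. It was present in some libraries at 7 genes and in none at Ndufa6. The summit of the best gene-end peak itself lay within 500 bp of the start in every library with a peak at 15 genes, in some libraries at 13 and in no library at 4 (Ndufv2, Ndufa6, Ndufa13 and Ndufb6). For 26 of the 35 genes the best peak stayed at 1 site (each summit no more than 1000 bp from the next one along the chromosome), and for 9 genes it moved between sites.

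Some starts were shared with a neighbour, so that a peak could belong to either gene. Of the 32 genes, 8 (25.0%) had the start of another gene on the opposite strand within 1000 bp upstream, against 8.48% of all genes. The distance was 10 bp for Ndufa7 with the ribosomal protein gene Rps28, 19 bp for Ndufs3 with Kbtbd4, 63 bp for Ndufa11 with Vmac and 64 bp for Ndufb3 with Fam126b. It was 135 bp for Ndufa8 with Morn5, 164 bp for Ndufa13 with Tssk6, 308 bp for Ndufb5 with Mrpl47 and 618 bp for Ndufa5 with Asb15. At Ndufa13, Ndufb5 and Ndufa11 the summit was nearer to the neighbour in at least 8 libraries. This count takes 1 annotated start per gene and so misses neighbours with another end close by. The best summits lay 40 to 257 bp from an end of Mrpl36 at Ndufs6, 17 to 82 bp from an end of Wdr4 at Ndufv3 and 9 to 376 bp from an end of Rbm10 at Ndufb11. At Ndufs1, which has no promoter entry, they lay 10 to 310 bp from an end of Eef1b2. The lists cannot assign such a peak to 1 gene.

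**Figure D3:**
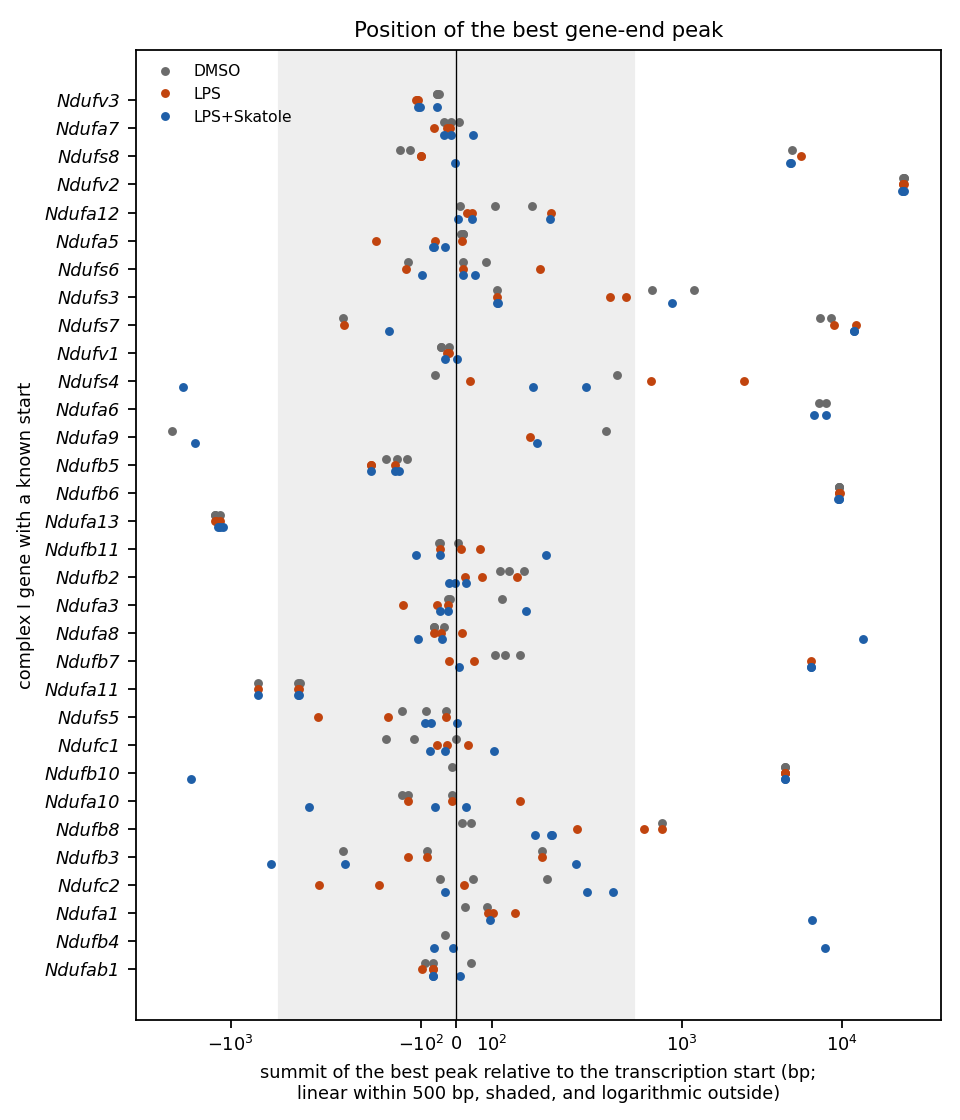
Distance in bp from the annotated start to the summit of the best gene-end peak (horizontal axis, linear within 500 bp, shaded, and logarithmic outside) for 32 complex I genes. Each point is a library, coloured by group. At 15 genes every point lies in the shaded band, and at Ndufv2, Ndufa6, Ndufa13 and Ndufb6 none does.

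Of the matrix arm genes for the NADH site, Ndufv1, which binds NADH and the flavin cofactor, had a weak and patchy peak. Its summit, at chr19:4012752-4012798 and within 43 bp of the gene's start, was called in all DMSO libraries but missed in LPS 1 and LPS+Skatole 1. Fold enrichment was 3.06, 2.72 and 2.60 in DMSO, 2.55 and 2.49 in LPS libraries 2 and 3, and 3.10 and 2.26 in LPS+Skatole libraries 2 and 3. The percentile was 58.1, 51.4 and 44.9 in DMSO, 60 and 61.0 in LPS, and 74.5 and 47.1 in LPS+Skatole. The values of the 3 groups overlapped, and the 2 libraries without a call came from different groups.

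Ndufv2, an iron-sulphur subunit beside Ndufv1, had its best peak not at the start but past the far end of the gene, at chr17:66076884-66077576 and 1228 to 1920 bp from an end of Ankrd12. The fold there was 12.0 to 21.1 over the 9 libraries. At the start of Ndufv2 a peak was also called in all 9, with a fold of 2.23 to 4.15. The small accessory subunit gene Ndufv3 had the highest mean percentile of all 35, 98.7 over the 9 libraries. Its fold was 35.4, 43.3 and 42.0 in DMSO, 24.1, 29.8 and 33.7 in LPS, and 31.7, 35.3 and 32.3 in LPS+Skatole. Each LPS and LPS+Skatole value was below the lowest DMSO value, 1 of them just below it, while the percentile stayed between 97.2 and 99.3 throughout. Its summits, at chr17:31520002-31520067, lay within 113 bp of the start, and within 17 to 82 bp of an end of Wdr4. Ndufs1, the largest iron-sulphur subunit, had a fold of 21.5, 33.4 and 18.2 in DMSO, 27.3, 33.2 and 29.3 in LPS, and 23.7, 16.6 and 33.3 in LPS+Skatole, with overlap throughout.

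Of the genes for the ubiquinone end of the matrix arm, Ndufs8 and Ndufs7, which carry its last iron-sulphur clusters, showed how a gene-end value can change with the peak that is counted. At Ndufs8 the best peak lay at the start (chr19:3912778-3912933) in 5 libraries, and near the far end of the gene, beside Tcirg1 (chr19:3907180-3908013), in DMSO 2, LPS 1, LPS+Skatole 1 and LPS+Skatole 2. Its fold was 8.43, 16.0 and 9.19 in DMSO, 3.02, 9.44 and 7.42 in LPS, and 28.9, 26.3 and 9.63 in LPS+Skatole. At the start alone the fold was 8.43, 2.46 and 9.19 in DMSO, 2.09, 9.44 and 7.42 in LPS, and 8.45, 9.97 and 9.63 in LPS+Skatole. The low values, 2.46 and 2.09, came with a local background of 40.2 and 38.5 times the genome background, against 9.49 to 10.0 times in the other 7 libraries. The fragment counts at the start were 98, 140 and 131 in DMSO, 186, 211 and 174 in LPS, and 200, 223 and 240 in LPS+Skatole.

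Ndufs7 stood at percentiles 100, 99.9 and 99.9 in LPS 3, LPS+Skatole 1 and LPS+Skatole 2, with folds of 88.2, 70.6 and 76.1, and between 3.92 and 52.5 in the other 6 libraries. These 3 values came from a wide peak with its summit at chr10:80261431-80261740, beside Dazap1 and outside the window, whose edge reached into the window only there. When a summit inside the window was required, Ndufs7 stood at 0 (no peak) in LPS 3 and at 63.2, 46.3 and 43.2 in LPS+Skatole. At its own start, Ndufs7 had a peak in 6 libraries with folds of only 1.35 to 1.74, although 140 to 324 fragments were counted at the summit. The other core gene of this end, Ndufs3, had folds of 4.65 to 11.2 over the 9 libraries, with the summit 115 to 1196 bp from a gene end.

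Among the accessory genes of the matrix arm, Ndufa7, Ndufa2 and Ndufa5 had peaks beside a gene end in all 9 libraries, within 225 bp of it. Ndufa7, whose start is 10 bp from that of Rps28, had folds of 35.9, 42.1 and 35.6 in DMSO, 21.6, 27.0 and 23.3 in LPS, and 27.2, 37.7 and 35.9 in LPS+Skatole, so its LPS values lay below both other groups, by 0.2 at the closest against LPS+Skatole. Ndufa2, a thioredoxin-like subunit, had folds of 18.6 to 30.5 and percentiles of 92.8 to 98.1. Ndufa5 had folds of 12.4, 16.3 and 11.9 in DMSO, 15.8, 12.1 and 14.7 in LPS, and 24.3, 23.0 and 23.6 in LPS+Skatole. The LPS+Skatole values of Ndufa5 were all above those of the other 6 libraries. Ndufa12, a relative of the assembly factor Ndufaf2, had folds of 10.2 to 26.3, and Ndufs6, a zinc-binding subunit, of 7.21 to 18.

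The matrix arm also held 3 genes with few or weak calls. Ndufs4, whose loss is a widely used mouse model of mitochondrial disease, had a peak in all libraries but DMSO 2, at percentiles of 2.29 to 71.3. Its start peak was called in 6 libraries and missed in DMSO 2, LPS 2 and LPS+Skatole 2. Ndufa9, of the short-chain dehydrogenase family, had the lowest mean percentile, 20.01 with missing peaks at 0, and a peak in DMSO 2, DMSO 3, LPS 2, LPS+Skatole 1 and LPS+Skatole 2. Ndufa6, which binds the acyl carrier protein Ndufab1, had a gene-end peak in DMSO 2, DMSO 3, LPS+Skatole 1 and LPS+Skatole 2 and in 0 of 3 LPS libraries. Those peaks had summits at chr15:82346284-82347525, beside Smdt1, of which 3 lay outside the window, and no library had a peak within 500 bp of the Ndufa6 start printed above. With a window of 5 kb Ndufa6 had a peak in all 9 libraries, at percentiles of 98.9, 89.4 and 84.8 in DMSO, 89.2, 94.9 and 86.4 in LPS, and 93.0, 95.8 and 92.5 in LPS+Skatole, so the calls missing at 3 kb depended on the window.

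Of the membrane arm genes, Ndufa3, a subunit with a single membrane span, had a peak at its start in all 9 libraries, with summits at chr7:3617223-3617568. Its fold was 16.7, 23.3 and 20.3 in DMSO, 20.3, 17.7 and 27.8 in LPS, and 32.9, 27.9 and 20 in LPS+Skatole. The groups overlapped. Its percentiles ranged from 86.8 to 97.5. Ndufb2 had a start peak in all 9 libraries at chr6:39592544-39592755. Its fold was 17.7, 21.7 and 26.7 in DMSO, 15.2, 29.5 and 24.5 in LPS, and 26.3, 35.9 and 21.8 in LPS+Skatole, and the groups overlapped here too.

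The highest membrane arm genes were Ndufb5 and Ndufb6, accessory subunits of the arm. Ndufb5 had percentiles of 96.4 to 97.9, with folds of 34.9, 30.9 and 33.1 in DMSO, 26.7, 31.6 and 28.1 in LPS, and 35.3, 33.7 and 33.0 in LPS+Skatole. Ndufb6 had folds of 21.7 to 46.3, at summits within 3 to 118 bp of an end of Smim27 or Topors. At its own start Ndufb6 had a peak in all 9 libraries, with folds of 10.5 to 21.5. Ndufa13, also known as GRIM-19, had folds of 12.9 to 29.7 and Ndufa8, which faces the intermembrane space, of 13.8 to 26.3. Ndufb11 had folds of 22.5, 30.9 and 45.4 in DMSO, 21.9, 15.8 and 21.8 in LPS, and 22.2, 26.1 and 18.6 in LPS+Skatole, so DMSO 3 alone was above 30.9. Ndufa10, of the nucleoside kinase family, had folds of 17.2, 13.8 and 19.9 in DMSO, 12.7, 6.20 and 13.2 in LPS, and 12.0, 15.6 and 11.2 in LPS+Skatole, with every LPS value below every DMSO value.

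At Ndufb8 the LPS libraries had the lowest values. Its fold was 10.7, 15.2 and 10.5 in DMSO, 7.15, 6.75 and 5.86 in LPS, and 14.5, 14.3 and 9.50 in LPS+Skatole. The 3 LPS libraries were the 3 lowest on the fold and on the percentile, which was 76.7, 85.3 and 71.1 in DMSO, 66.9, 62.7 and 55.4 in LPS, and 85.4, 88.4 and 78.2 in LPS+Skatole. The local background was 1.65, 1.17 and 1.15 times the genome background in DMSO, and 1.64, 1.61 and 1.61 times in LPS. An alternative chosen after seeing the data ranked peaks by summit fragments over genome background. It gave 71.6, 76.8 and 61.7 in DMSO and 64.3, 62.0 and 56.7 in LPS, which overlapped. LPS+Skatole, at 78.7, 84.5 and 75.6, stayed above LPS. Ndufc2 had folds of 8.99, 7.99 and 8.22 in DMSO, 6.25, 10.2 and 9.57 in LPS, and 12.3, 12.9 and 12.5 in LPS+Skatole, the last above all others. Ndufb7 had folds of 12.0, 16.7 and 17.0 in DMSO, 18.8, 19.5 and 18.8 in LPS, and 16.8, 31.3 and 36.2 in LPS+Skatole. In LPS 1, LPS+Skatole 2 and LPS+Skatole 3 the best peak of Ndufb7 was a different site past the far end (chr8:83573164-83573232). At the start of Ndufb7 the fold was 12.0, 16.7 and 17.0 in DMSO, 11.8, 19.5 and 18.8 in LPS, and 16.8, 14.7 and 11.8 in LPS+Skatole, and all 3 groups overlapped.

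Ndufb4 was the only member with a peak in every library of 1 group and in none of another. It had a gene-end peak in DMSO 1, in 0 of 3 LPS libraries and in all 3 LPS+Skatole libraries, at percentiles of 67.0, and 57.4, 73.9 and 83.5. Within 500 bp of the start, the same 4 libraries had a peak, with folds of 4.24 in DMSO 1 and 2.04, 2.89 and 4.57 in LPS+Skatole, over a local background of 11 and 22.4, 22.3 and 11.2 times the genome background. Ndufb10 had folds of 4.22, 3.61 and 5.40 in DMSO, 3.18, 3.65 and 3.89 in LPS, and 2.71, 3.09 and 9.50 in LPS+Skatole. Its best peak was the same site past the far end, 1850 to 1864 bp from an end of Rps2, in 7 libraries and other sites in DMSO 3 and LPS+Skatole 3. Ndufa1, a small subunit encoded on chromosome X, lacked a peak in DMSO 1 and LPS+Skatole 3 and otherwise stood at percentiles of 22.4 to 82.7. The remaining membrane arm genes, Ndufa11, Ndufb3, Ndufb9, Ndufc1 and Ndufs5, and Ndufab1, the acyl carrier protein of both arms, had a peak in all 9 libraries at percentiles of 56.1 to 97.9.

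The genes with missing calls differed in fragment number and in local background. From the authors' fold and −log10 p, the number of fragments at each summit and the local background the caller set against it could be recovered. The local background was at the genome level, within a factor of 1.1 by median, at 19 of the 35 genes, between that and 3 times it at 10 genes, and above 3 times at 6 (17.1%): Ndufv1, Ndufs8, Ndufa6, Ndufa11, Ndufb4 and Ndufb10. Over all genes with a peak, 21.7% were above 3 times. Of the genes with missing calls, Ndufs4 held 11 to 30 fragments at its best summit, Ndufa9 16 to 33 and Ndufa1 14 to 42, with a median background of 1.00 times. At Ndufv1, by contrast, the background was 18.1 to 19.2 times the genome background in each of the 7 libraries with a call, and the summit held 66 to 133 fragments. Ndufb4 held 54 to 148 fragments at its start on a background of 11 to 22.4 times, and 24 fragments at 1.00 times at its other site in LPS+Skatole 1. Ndufa6, whose missing calls depended on the window, held 36 to 226 fragments on a background of 4.29 to 19.3 times in the 4 libraries with a call. Ndufb5, with a background of 1.00 times in all 9 libraries, held 72 to 117 fragments at a fold of 26.7 to 35.3. At the start of Ndufs7 the background was 79.3 to 88.8 times the genome background, at Ndufa11 15.0 to 29.6 times with 123 to 247 fragments. The caller's use of a control sample is not stated in the sources used here, and what sets this background was not tested.

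**Figure D4:**
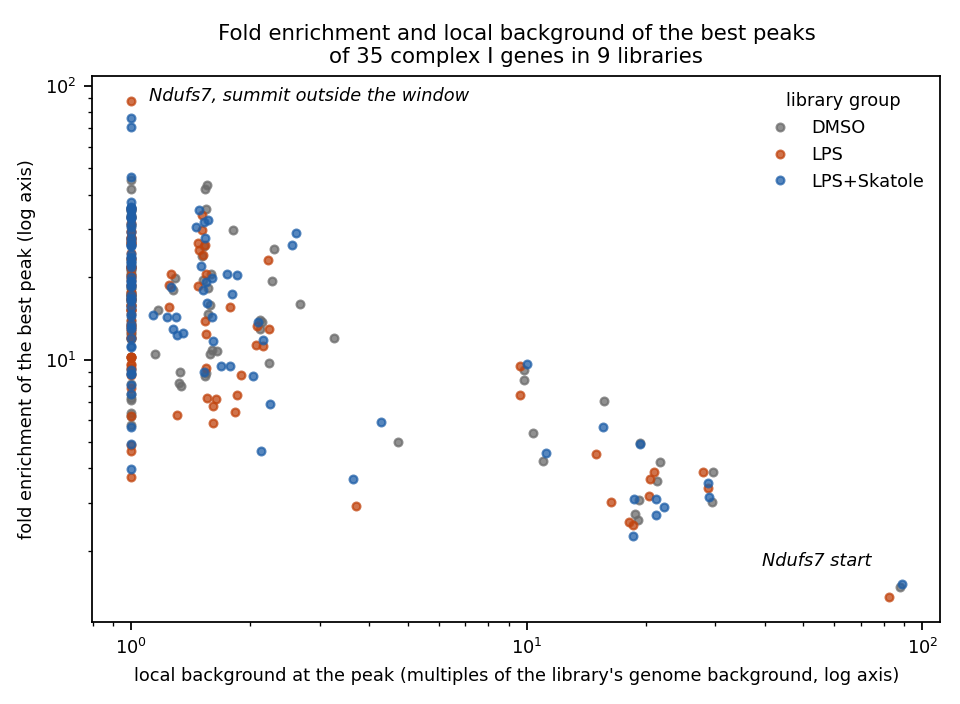
Fold enrichment (vertical, log axis) of the best gene-end peak against its local background in multiples of the genome background of its library (horizontal, log axis), for 35 complex I genes. Each point is a gene in a library, coloured by group. Peaks with a background of 10.4 times or more have folds of at most 7.07, and those at 1 time reach 46.3, apart from the 3 Ndufs7 peaks at 70.6 to 88.2 with a summit outside the window.

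LPS was then compared with DMSO, to ask whether activation moved p65 at these genes. No complex I gene passed the test. With limma on log2 fold enrichment, over the 8872 genes with a peak in all 9 libraries and with Benjamini-Hochberg adjustment, 0 of the 29 complex I genes tested were called higher and 0 lower, where 0.113% and 0.0113% of all genes were called. The smallest adjusted p among them was 0.391. At an unadjusted p under 0.05, 5 genes were lower, Ndufb8, Ndufa10, Ndufb11, Ndufa7 and Ndufv3, against 4.66% of all genes, and 0 were higher, against 3.73%. The median log2 difference was -0.16 over the 29 genes, with 10 values above 0 and 19 below, and -0.05 over all. It was -0.86 for Ndufb8 (95% interval -1.42 to -0.29, adjusted p = 0.391), -0.66 for Ndufa7 (-1.13 to -0.18, adjusted p = 0.435) and -0.46 for Ndufv3 (-0.91 to -0.02, adjusted p = 0.562). For Ndufa3 it was 0.12 (-0.46 to 0.70) and for Ndufb2 0.04 (-0.63 to 0.71), so differences within these intervals could not be resolved with 3 libraries a group.

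On the percentile, Ndufb7 was higher in all 3 LPS than in all 3 DMSO libraries, and Ndufa7 and Ndufb8 were lower. That is 1 gene of 35 higher, against 12.2% of all genes with a peak in any library, and 2 lower, against 1.82%. The exact permutation test gave p = 0.1 for each of these 3 genes, the smallest that 3 against 3 libraries allow. The percentile means were 82.7 ± 5.95 (SD, n = 3) and 91.7 ± 0.520 for Ndufb7, 98.1 ± 0.551 and 94.9 ± 1.43 for Ndufa7, and 77.7 ± 7.15 and 61.7 ± 5.82 for Ndufb8. With a window of 1 kb Ndufb7 overlapped, at 79.8 in LPS 1 in place of 91.4. With lists of equal length 6 genes were lower (17.1%), against 7.87% of all genes with a peak under that setting. Leaving out 1 library makes non-overlap easier for every gene. Without LPS 1, LPS 2 or DMSO 2, 7, 6 and 5 genes were higher (20%, 17.1% and 14.3%), against 19.3%, 18.7% and 18.7% of all genes. Without LPS 3, DMSO 1 or DMSO 3, 1 gene was higher in each run (2.86%), against 17.1%, 15.5% and 17.6%. Without LPS 3, DMSO 1 or DMSO 2, 5, 6 and 3 were lower (14.3%, 17.1% and 8.57%), against 4.2%, 4.46% and 3.42%. Without LPS 1, LPS 2 or DMSO 3, 2 genes were lower in each run (5.71%), against 3.27%, 3.49% and 3.8%. No complex I gene gained a gene-end peak in all 3 LPS libraries against 0 in DMSO (1.27% of all genes did), and none lost it (0.119%).

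LPS+Skatole was compared with LPS, to ask whether skatole changed p65 at these genes in activated cells. Again no complex I gene passed. limma called 0 of 29 genes higher and 0 lower, against 0.0% and 0.0451% of all genes, and the smallest adjusted p was 0.624. At an unadjusted p under 0.05, 3 genes were higher (Ndufs8, Ndufb8 and Ndufa5, against 3.26% of all genes) and 0 were lower (3.62%). The log2 difference was 0.74 for Ndufb8 (95% interval 0.17 to 1.31, adjusted p = 0.624) and 0.55 for Ndufa5 (0.08 to 1.02, adjusted p = 0.667). For Ndufs8 it was 1.51 (0.35 to 2.67, adjusted p = 0.624), 0.02 (adjusted p = 0.996) with a window of 5 kb, and 0.14 (an alternative chosen after seeing the data) when fragments at the summit were set against the genome background in place of the local one. The median over the 29 genes was 0.08, against -0.02 over all, with 19 values above 0 and 10 below. Without centring of the libraries it was 0.27, and without LPS 3 it was 0.22. Ndufa3 differed by 0.10 (-0.48 to 0.68, adjusted p = 0.953), Ndufb2 by 0.11 (-0.56 to 0.78, adjusted p = 0.953) and Ndufs1 by -0.53 (-1.23 to 0.16, adjusted p = 0.769).

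By percentile, 5 of 35 genes (14.3%) were higher in all 3 LPS+Skatole than in all 3 LPS libraries, against 8.17% of all genes, and 1 (2.86%) was lower, against 2.55%. The higher genes were Ndufb4, Ndufb8, Ndufc2, Ndufa5 and Ndufa12, of which Ndufa5 and Ndufa12 belong to the matrix arm and the other 3 to the membrane arm. Their means were higher by 71.6, 22.3, 16.4, 8.87 and 8.30 percentile points, Ndufb4 from no peak. The lower gene, Ndufb10, had means of 85.3 ± 4.70 (SD, n = 3) in LPS and 75 ± 4.92 in LPS+Skatole. The exact permutation test gave p = 0.1 for each of the 6 genes, the smallest possible. When a list was ranked by fold, or a window of 1 kb was used, 0 genes were lower, against 2.69% and 2.81% of all genes. With lists of equal length 4 genes were higher (11.4%), against 3.19% of all genes, and 3 were lower (8.57%), against 7.83%. Leaving out LPS+Skatole 1, LPS+Skatole 3, LPS 2 or LPS 3 gave 8, 9, 9 and 8 higher genes (22.9%, 25.7%, 25.7% and 22.9%), against 14.6%, 14.5%, 12.3% and 13.7% of all genes. The lower genes were then 3, 2, 3 and 1 (8.57%, 5.71%, 8.57% and 2.86%), against 5.3%, 5.24%, 5.81% and 4.58%. The remaining runs, without LPS+Skatole 2 or LPS 1, gave 6 and 5 higher genes (17.1% and 14.3%), against 14.8% and 11.9%. In each of these runs 1 gene was lower (2.86%), against 5.09% and 5.73%. Ndufb4 was the only complex I gene to gain a peak (3 of 3 libraries against 0), as 0.595% of all genes did, and none lost it (0.101%).

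**Figure D5:**
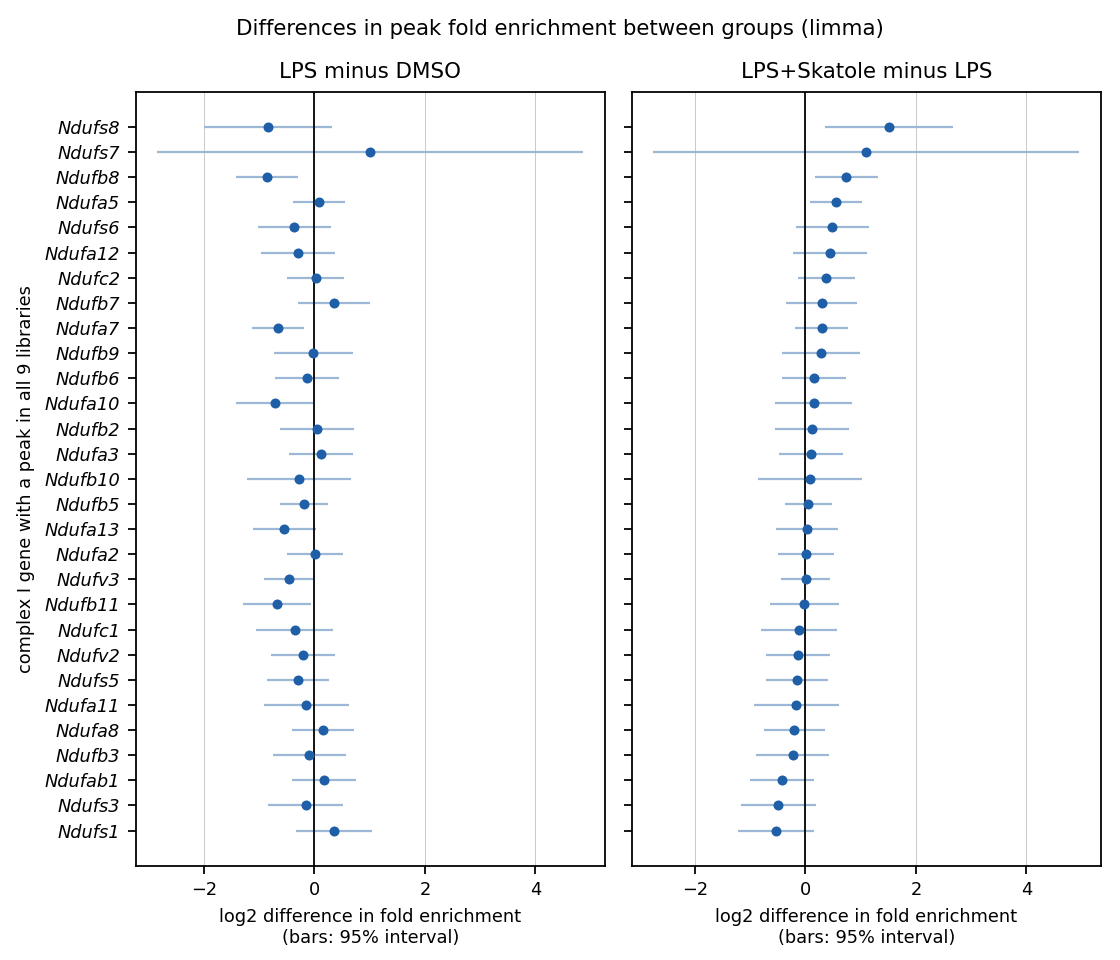
log2 difference in fold enrichment of the best gene-end peak (horizontal axis) for the 29 complex I genes with a peak in all 9 libraries, LPS minus DMSO (left) and LPS+Skatole minus LPS (right). Points are limma estimates from 3 libraries a group, bars 95% intervals. On the left 10 estimates are above 0 and 19 below, on the right 19 above and 10 below, and no gene passed the adjusted threshold.

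LPS+Skatole against DMSO shares libraries with both contrasts above. limma called 0 of 29 genes higher and 0 lower, against 0.192% and 0.0564% of all genes, with a smallest adjusted p of 0.283, for Ndufa5 (log2 difference 0.63, 95% interval 0.16 to 1.1). At an unadjusted p under 0.05, Ndufa5 was higher, against 5.07% of all genes, and Ndufv3 (-0.46) and Ndufb11 (-0.70) were lower, against 7.34%. By percentile in the full lists, Ndufs8, Ndufa5, Ndufb7 and Ndufc2 (4 of 35) were higher without overlap, against 18.2% of all genes. In those lists 0 were lower, against 1.21%. At Ndufb7 the values of LPS+Skatole 2 and LPS+Skatole 3 came from the site past the far end. In LPS+Skatole 1 the best peak was at the start, at 87.6 against at most 86.3 in DMSO. The start peak of Ndufb7 overlapped between the groups. With lists of equal length, Ndufs8 and Ndufa5 stayed higher without overlap, while Ndufb7 and Ndufc2 overlapped. Other genes were then lower without overlap, among them Ndufa10, at 87.5, 78.1 and 88.7 in DMSO against 55.3, 70.2 and 50.3 in LPS+Skatole. Ndufv2, Ndufv3, Ndufs3, Ndufa7, Ndufa13, Ndufb5, Ndufb10, Ndufb11, Ndufc1, Ndufs5 and Ndufab1 were lower too. Under that setting more complex I genes were thus lower than higher, the reverse of the full lists. The share of all genes under that setting was not counted for this contrast, so these genes cannot be set against a background. The percentile of Ndufa5 was 79.3 ± 5.73 (SD, n = 3) in DMSO, 84.9 ± 3.59 with LPS and 93.8 ± 0.458 with LPS and skatole.

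Genes that help build complex I, and those of the other respiratory complexes, were counted in the same way. The 16 assembly factor genes had a gene-end peak in 89.6% ± 7.27 (SD, n = 3), 91.7% ± 7.22 and 97.9% ± 3.58 of cases in DMSO, LPS and LPS+Skatole, and 34 subunit genes of complexes III, IV and V in 88.2% ± 2.95, 93.2% ± 3.41 and 92.2% ± 1.67. Of the 4 genes of complex II, 3 had a peak in all 9 libraries. limma called 0 of 13 assembly factor, 0 of 3 complex II and 0 of 26 complex III to V genes in each of the 3 contrasts, with smallest adjusted p-values of 0.313, 0.712 and 0.132. The median log2 difference of LPS+Skatole against LPS was -0.06 for assembly factors and -0.13 for complexes III to V, against 0.08 for complex I genes. Over the 3 complex II genes tested it was -0.73. These medians were not tested against each other. In the same contrast, 3 of 16 assembly factor genes, 1 of 4 complex II genes and 0 of 34 genes of complexes III to V were higher by percentile without overlap. Of all genes 8.17% were. In the same order 1, 1 and 0 were lower, against 2.55% of all genes.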

How the data were processed

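CUT&Tag peaks were analysed in 9 libraries. The authors deposited 1 narrowPeak list per library, without pooling, with a score, a fold enrichment (the ratio of summit signal to local background), −log10 p and −log10 q values and the summit offset. The submitters' processing notes name fastp 0.20.1, HISAT2 2.1.0, StringTie 2.0 and the build mm10. The peak caller, its settings and its control are not given in the sources used here. Every deposited list ended just above a −log10 p of 5, which limits calls to what depth allows. The score and q values entered no result.

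Peaks were joined to protein-coding genes of the RefSeq table for GRCm38.p6, and the strongest by −log10 p within 3 kb of a gene end was kept. Summit fragments and background were recovered from fold and p, with 1 added to both in the fold and a Poisson upper tail for p. Counts came out whole for 100% of peaks, within 0.001 in −log10 p. log2 fold enrichment, centred on each library's median, was fitted with limma 3.58.1 (R 4.3.3) over the 9 libraries, for genes with a peak in all 9, at an adjusted p of 0.05. Percentiles were compared by exact two-sided permutation tests (scipy 1.17.1). The steps were run on simulated data with known answers. The log2 differences planted for limma were larger than the estimates above for complex I genes other than Ndufs7. Smaller differences were not covered by that run. Alternatives are given in the closing section.

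Genes described singly by rule were those the study names, those lacking a peak in a library, the 3 highest and 3 lowest by mean percentile, those without overlap between LPS and either other group, and the 5 with the largest log2 difference in each of those contrasts. The others were added to account for every member. The members, lists and tests were chosen with earlier results of these data known.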

Additional observations from a re-analysis of the deposited data

How the results depend on the processing

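With 3 libraries a group, no exact test can reach 0.05. Depth was lower in DMSO than in the other groups, list length differed between all 3, and reads or alignments, which would give the signal where no peak was called, were not used here. No alternative gave a called complex I gene: limma called 0 higher and 0 lower under all 21 alternatives. Of 888 comparisons of a result with an alternative, 821 kept their direction and their side of the threshold or stayed within the spread, 27 values over the list moved, among them the median percentile of both contrasts, which changed sign with lists of equal length, and 40 values of single genes that passed no test changed sign. The cause of these shifts was not tested.

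The share of complex I genes with a peak, LPS minus DMSO, was 0.0 points with a window of 5 kb and -7.62 with lists of equal length. The median percentile, LPS minus DMSO, was -3.02 with lists of equal length and 3.88 for peaks with −log10 p of at least 10. LPS+Skatole minus LPS gave -1.72 with lists of equal length and 3.5 when peaks were ranked by recovered fragments over genome background. Genes higher without overlap in LPS against DMSO numbered 0 with a 1 kb window, 2 when ranked by recovered fragments and 1 to 7 when 1 library was left out (10.9%, 15.3% and 15.5% to 19.3% of all genes). Lower genes numbered 6 with lists of equal length (17.1%, against 7.87% of all genes), 1 when ranked by recovered fragments (1.22%) and 2 to 6 when 1 library was left out (3.27% to 4.46%). For LPS+Skatole against LPS, higher genes numbered 4 with lists of equal length (11.4%, against 3.19% of all genes) and 5 to 9 when 1 library was left out (11.9% to 14.8%). Lower genes numbered 0 with a 1 kb window or ranking by fold (2.81% and 2.69%), 3 with lists of equal length (8.57%, against 7.83% of all genes) and 1 to 3 when 1 library was left out (4.58% to 5.81%). The median log2 difference of LPS+Skatole against LPS was 0.27 without centring and 0.0098 to 0.22 when 1 library was left out.

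Among single genes in LPS minus DMSO, the log2 difference changed sign with a 5 kb window at Ndufs7 (-0.063) and Ndufs8 (0.625). With recovered fragments over the genome background it changed sign at Ndufs8 (0.173, and 0.172 with the summit also in the window), Ndufb10 (0.275 and 0.274) and Ndufc2 (-0.128 and -0.13). With recovered fragments over the local background it was -0.0064 at Ndufa5 and -0.0551 at Ndufb2. In LPS+Skatole minus LPS it changed sign at Ndufb10 (-1.01 with a 1 kb window, -0.98 with recovered fragments over the genome background and -0.981 with the summit also in the window), Ndufs7 (-0.249, 5 kb), Ndufv3 (-0.021 with 5 kb and -0.0025 over genes with a peak in the 6 libraries of the contrast) and Ndufb11 (0.169 without centring). Leaving out 1 library gave, for LPS minus DMSO, -0.0452 to 0.241 at Ndufa3, -0.0185 to 0.211 at Ndufa5, -0.183 to 0.297 at Ndufb2, -0.129 to 0.228 at Ndufc2 and -0.679 to 2.3 at Ndufs7. For LPS+Skatole minus LPS it gave -0.184 to 0.333 at Ndufa10, -0.0574 to 0.319 at Ndufa3, -0.141 to 0.34 at Ndufb2, -0.475 to 0.414 at Ndufb10, -0.154 to 0.119 at Ndufb11, -0.181 to 2.98 at Ndufs7 and -0.109 to 0.0962 at Ndufv3. The alternatives that use recovered fragments over the genome background were chosen after seeing the data.

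The libraries of different groups share only a replicate number: deviations of equally numbered libraries correlated at -0.017 to 0.033, and not every library matched its own number best. Between DMSO and LPS+Skatole each number did match itself best, at correlations of 0.015 to 0.033. With the replicate number as a block, limma called 0 complex I genes in LPS minus DMSO and in LPS+Skatole minus LPS. The smallest adjusted p-values were 0.445 and 0.624, and the medians were -0.16 and 0.08. In LPS+Skatole minus DMSO it also called 0, with a smallest adjusted p of 0.355.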

Other observations

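Some peaks lay wholly inside a complex I gene, outside the windows at its ends. The lists held 8, 3 and 6 of them in DMSO, 8, 9 and 6 in LPS, and 13, 12 and 8 in LPS+Skatole libraries, and the groups overlapped. The lists themselves held 37551 to 43450, 55637 to 63498 and 78136 to 80153 peaks, and the bodies of other genes were not counted. Ndufs4, the longest of these genes, held 22 in all, found in 8 libraries. Ndufa9 held 14 in 8 libraries, Ndufab1 11 in 8, Ndufv2 8 in 7 and Ndufs1 7 in 6. At Ndufa9, whose gene-end peaks were the weakest of the complex I genes by mean percentile, internal peaks were thus called in more libraries (8) than gene-end peaks (5).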
